A study of Chlorocebus aethiops with 8 samples.

Results

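The genes described here are the 211 ZNF zinc-finger genes that the arrays read above a brightness limit in COS cells. Members were the genes whose symbol begins with ZNF, read by the one probe set with the highest mean log2 intensity over all 8 arrays among those annotated with that symbol alone. A gene was kept where that mean reached 4.32, an intensity of 19.9, which is the median over all probe sets that are not array controls. Of 285 ZNF genes with such a probe set, 211 were kept and 74 lay below the limit, and 10106 genes of any name were above it. Within the family, members were thus chosen by mean brightness, which is the measured value the rule used. The family itself was picked with earlier results of these data known. The 3 members just inside the limit were ZNF829, ZNF862 and ZNF664, with means of 4.37, 4.34 and 4.33. The 3 genes just outside it were ZNF467, ZNF699 and ZNF341, with means of 4.31, 4.29 and 4.28.

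Most ZNF proteins carry tandem C2H2 fingers, each a short fold held by a zinc ion, which read DNA base by base. Many of the primate members also carry a KRAB box, which recruits the scaffold protein TRIM28 (KAP1) and through it the histone methyltransferase SETDB1 and HP1 proteins, so that the bound chromatin, often a transposable element, is silenced. RNA helicase A (RHA, the product of DHX9) is a DExH-box helicase that unwinds structured RNA and is known to promote the translation of mRNAs with a structured 5' leader, including JUND.

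COS cells are a kidney line of the African green monkey that expresses the large T antigen of SV40, and their RNA was read here by rhesus macaque probes. All cells were transfected with siRNA at 0.5 nM, scrambled in the control groups and directed to coding nucleotides 2701 to 2721 and 2784 to 2803 of human RHA in the others. After each transfection the cells spent 4 h without serum, followed by 24 h with it. RNA was then taken from the cytoplasm or from the polysome fractions of a sucrose gradient, so that the 4 groups were cytoplasm and polysome under control siRNA and cytoplasm and polysome under RHA siRNA, with 2 arrays each. The arrays carry replicate number 1 or 2 in their titles, and the 4 arrays of one number are called set 1 and set 2. The labels do not state separate cultures for the sets. The p-values below therefore reflect the spread among these arrays alone, which may be technical. The main model has no set term, so this spread also includes the difference between set 1 and set 2. Each array received amplified product of 25 ng of RNA, so a polysome over cytoplasm ratio compares equal amounts of RNA and gives a gene's share relative to other genes. In such bulk RNA, fewer cells with a transcript and less transcript per cell cannot be told apart.

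The arrays had median intensities between 19.3 and 20.8. Between the sets, 51.3% of tested probe sets differed (limma, Benjamini-Hochberg adjusted p under 0.05), and so did 109 of the 211 ZNF genes (51.7%), 71 of them higher in set 2. One array lay away from its set, the control cytoplasm array of set 1, whose median correlation across probe sets to the others was 0.949. In the control transcripts for actin, EF1A and GAPDH the mean 3' minus 5' log2 difference, a sign of RNA quality, was lowest on the control polysome array of set 1, at 2.54, and next lowest on the RHA cytoplasm array of set 1, at 2.98, where the other 6 arrays had 3.56 to 4.15. From cytoplasm to polysome it thus differed by -1.55 in set 1 and 0.32 in set 2 under control siRNA, and by 0.74 and 0.25 under RHA siRNA. The part of this in the ratios below was not tested. Of 12 kidney tubule markers on the array 8 were above the limit, with summed intensities of 1822 to 3078 over all arrays, as were 6 of 7 fibroblast markers (5373 to 7818), 3 of 5 leukocyte markers (186 to 380) and 0 of 1 hepatocyte marker. For the siRNA target DHX9, control cytoplasm read 244 and 342, and cytoplasm of RHA siRNA cells 130 and 254. Control polysomes read 359 and 477, and polysomes of RHA siRNA cells 97.2 and 269. Each set was lower with the RHA siRNA in both fractions, with mean log2 differences of -0.67 in cytoplasm and -1.36 in polysomes, and neither passed the adjusted test (adjusted p = 1 in both, limma). With the set in the model the polysomal SE was 0.31, against 0.59 without it, and the adjusted p was 0.96 (limma).

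Under RHA siRNA the ZNF genes stood higher in polysomes, relative to cytoplasm, than the general run of genes. Their median log2 ratio was 0.21, against 0.02 over all 10106 genes, and it was above that of all genes in set 1 (0.10 against -0.04) and in set 2 (0.33 against 0.10). Of the members, 152 of 211 (72.0%) had a mean ratio above 0, where 52.0% of all genes did. Ratios above 0 in both sets were found for 108 members (51.2%; 32.3% of all genes), and below 0 in both sets for 30 (14.2%; 25.1% of all genes). In 43 members (20.4%) both polysome arrays were brighter than both cytoplasm arrays, which held for 9.83% of all genes, and the opposite order was found in 5 members (2.37%; 7.63% of all genes). The difference between the medians was 0.19, and was above 0 with any 1 of the arrays left out, at the least 0.07 without the RHA polysome array of set 2. These fits, and those with 1 array left out below, had no set in the model unless stated. The group that lost an array then came from 1 set and the others from both, so the values also carry the difference between sets. No single gene passed the test: limma called 0 of 26383 probe sets at an adjusted p under 0.05, and at an unadjusted p under 0.05 it listed 70 probe sets and 1 member, ZNF83 (0.237% of all genes).

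Under control siRNA the same genes lay close to the rest. The median log2 ratio was 0.14 over the ZNF genes and 0.08 over all genes, with 0.10 against 0.10 in set 1 and 0.09 against 0.05 in set 2. A mean above 0 was found for 138 members (65.4%; 61.8% of all genes). Both sets were above 0 for 90 members (42.7%; 35.4% of all genes) and below 0 for 35 (16.6%; 18.8% of all genes). Polysome arrays were brighter without overlap in 20 members (9.48%; 10.2% of all genes), and cytoplasm arrays in 8 (3.79%; 4.58% of all genes). The calls were again 0 of 26383 probe sets by limma, with 55 probe sets and 0 members at an unadjusted p under 0.05 (0.237% of all genes). The difference of 0.06 between these medians turned below 0 when the control cytoplasm array of set 1 (-0.14) or the control polysome array of set 2 (-0.15) was left out, and was 0.29 without the control polysome array of set 1 or 0.26 without the control cytoplasm array of set 2. Centring each array on its own median, in place of the deposited scale, moved the median of all genes from 0.08 to -0.07 and the share of ZNF genes above 0 from 65.4% to 47.4% (all genes 40.4%), so only the difference from all genes is comparable between scales.

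The change in the ratio under RHA siRNA had a median log2 of 0.11 over the ZNF genes and -0.03 over all genes. Within the sets the medians were -0.05 against -0.08 and 0.21 against 0.05, so the distance from all genes was larger in set 2. A mean change above 0 was found for 118 members (55.9%; 46.8% of all genes). The change was above 0 in both sets for 71 members (33.6%; 26.9% of all genes) and below 0 in both for 41 (19.4%; 28.2% of all genes). Without overlap between the ratios of the siRNAs, 58 members were higher under RHA siRNA (27.5%; 18.7% of all genes) and 26 lower (12.3%; 22.0% of all genes). Limma called 0 of 26383 probe sets for this change, with 46 probe sets and 0 members at an unadjusted p under 0.05 (0.218% of all genes). Leaving out the control polysome array of set 1 turned the ZNF median below that of all genes, to a difference of -0.12 from 0.14, and leaving out the control cytoplasm array of set 2 gave -0.10. Without the control cytoplasm array of set 1 the difference was 0.35, and without the control polysome array of set 2 it was 0.34. The remaining arrays moved it to between 0.02, without the RHA polysome array of set 2, and 0.22, without that of set 1. As above, these values also carry the difference between sets.

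**Figure D1:**
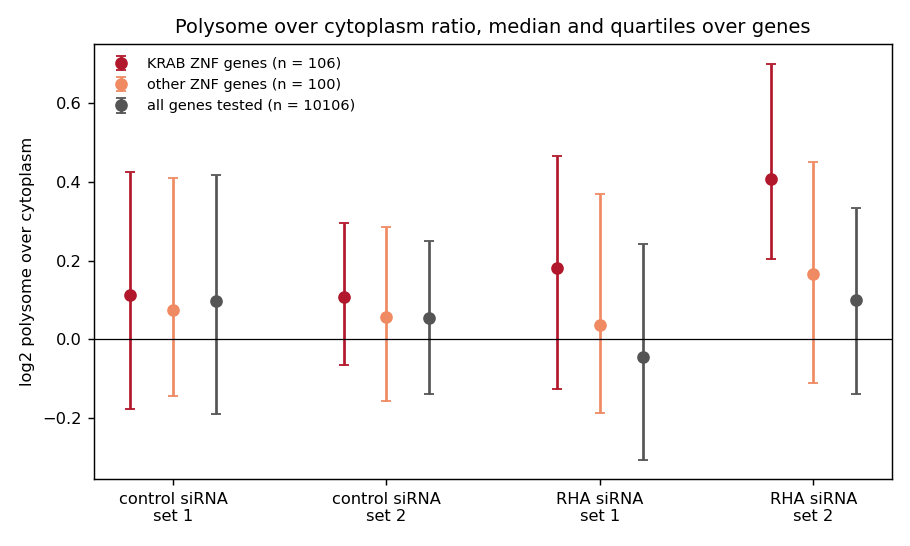
Log2 polysome over cytoplasm ratio (vertical axis) in each of the 4 array pairs, as the median over genes (points) with the quartiles over genes (bars), for KRAB ZNF genes, other ZNF genes and all genes tested. The KRAB genes lay at 0.18 and 0.41 under RHA siRNA, above all genes at -0.04 and 0.10, and at 0.11 in both sets under control siRNA.

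By class, the median RHA siRNA ratio was higher in the KRAB members than in the others. By a list drawn up from general knowledge with the data in hand, 106 members carry a KRAB box, 5 carry a SCAN box (a dimerisation domain) without KRAB, and 100 are counted as other ZNF genes, some of which may carry a KRAB box that the list lacks. These classes are a description and were not tested. The KRAB genes had a median RHA siRNA ratio of 0.29, with 0.18 in set 1 and 0.41 in set 2, and 88 of 106 were above 0 (83.0%; 52.0% of all genes). Both sets were above 0 for 65 of them (61.3%; 32.3% of all genes) and below 0 for 8 (7.55%; 25.1% of all genes). Polysome arrays were brighter without overlap in 25 (23.6%; 9.83% of all genes) and dimmer in 1 (0.943%; 7.63% of all genes). The other ZNF genes had a median of 0.07, with 0.04 and 0.16 within the sets, and 60 of 100 were above 0. Under control siRNA the pooled medians of both classes lay together, at 0.14 for KRAB genes and 0.13 for the other ZNF genes. Both control pairs were above 0 for 47.2% of KRAB genes and 38% of the other ZNF genes (35.4% of all genes). They were below 0 for 10.4% and 23% (18.8% of all genes). In these shares the classes thus also differed under control siRNA. The change under RHA siRNA had a median of 0.20 over the KRAB genes, with 0.03 and 0.29 within the sets, and of -0.05 over the other ZNF genes. For the KRAB genes, the difference from all genes in the change was 0.24, and -0.23 without the control polysome array of set 1, -0.20 without the control cytoplasm array of set 2 and -0.01 without the RHA polysome array of set 2. In the RHA siRNA ratio it was 0.27 with all arrays and 0.10 to 0.44 when 1 array was left out.

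Ratios above 0 in all 4 array pairs, both siRNAs included, were found for 55 ZNF genes (26.1%), where 9.46% of all genes had them. They were 35 of the KRAB genes (33.0%), 18 of the other ZNF genes and 2 of the 5 SCAN genes. Ratios below 0 in all 4 pairs were found for 6 ZNF genes (2.84%; 5.65% of all genes), namely ZNF22, ZNF24, ZNF414, ZNF692, ZNF771 and ZNF784, and 0 of the 106 KRAB genes were among them. Both sets below 0 under control siRNA and above 0 under RHA siRNA were found for 10 members (4.74%; 5.52% of all genes), and the reverse for 12 (5.69%; 9.11% of all genes). Across the members the set 1 and set 2 ratios had a Pearson correlation of 0.07 under control siRNA and 0.21 under RHA siRNA (n = 211 genes, which share arrays and are not independent), so the order of single genes was only weakly shared between sets. Over all genes these correlations were 0.04 and 0.24.

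**Figure D2:**
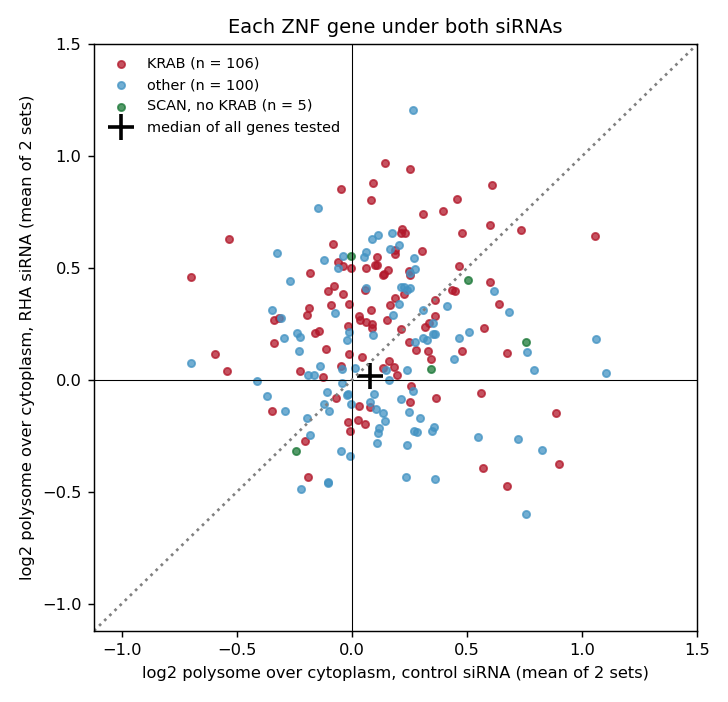
Each of the 211 ZNF genes by its mean log2 polysome over cytoplasm ratio under control siRNA (horizontal) and RHA siRNA (vertical), coloured by class; the cross marks the median of all genes tested (0.08 and 0.02) and the dotted line equal ratios. Most points lie above the horizontal zero line (152 of 211), and KRAB genes make up 88 of those.

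Under RHA siRNA the ZNF genes also had higher ratios than genes of like brightness. In the dimmest, middle and brightest band of genes, which hold equal numbers of all genes tested and are bounded at log2 means of 5.76 and 7.94, there were 89, 88 and 34 members. Their median RHA siRNA ratios were 0.13, 0.23 and 0.30, where all genes of the same bands had -0.05, 0.02 and 0.10. Under control siRNA the ZNF medians were 0.06, 0.17 and 0.16, against -0.02, 0.18 and 0.07. The 74 ZNF genes below the limit had medians of 0.03 under control siRNA and 0.02 under RHA siRNA, at intensities where probe sets carry little signal.

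**Figure D3:**
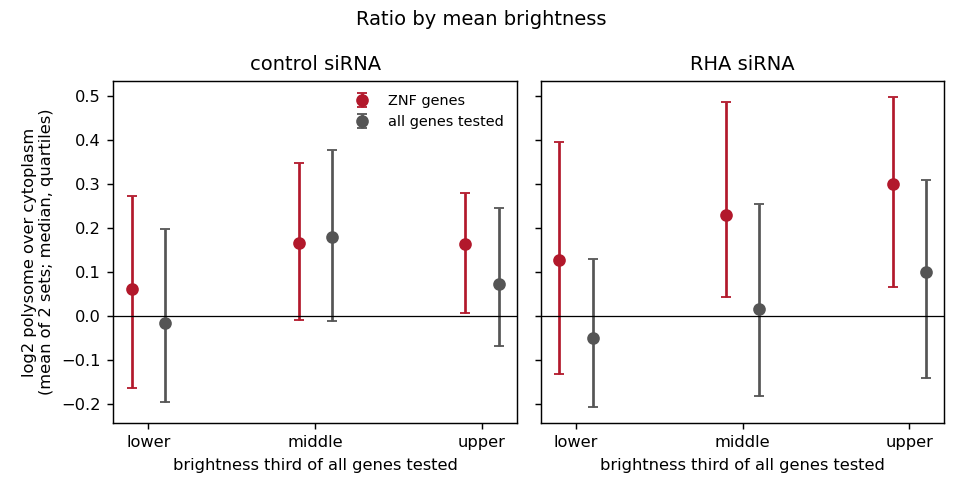
Log2 polysome over cytoplasm ratio (vertical axis; mean of 2 sets) by brightness band of all genes tested, under control siRNA (left) and RHA siRNA (right), as the median over genes (points) with quartiles (bars). Under RHA siRNA the ZNF medians of 0.13, 0.23 and 0.30 lie above those of all genes in each band.

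Of the members with a ratio of one sign in both sets under RHA siRNA, ZNF83, a protein of tandem C2H2 fingers, had the highest. Its polysome intensities were 133 and 111, and its cytoplasm intensities 64.9 and 42.9, so both polysome arrays were brighter than both cytoplasm arrays. The log2 ratio was 1.21 (SE 0.48, limma; 1.04 and 1.38 within the sets), a 2.31-fold ratio, with an adjusted p of 1.00 by limma. It was the only member at least 2-fold higher in polysomes under RHA siRNA (0.277% of all genes). Under control siRNA ZNF83 read 68.4 and 109 in polysomes and 50.4 and 102 in cytoplasm, a log2 ratio of 0.27.

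The next highest were KRAB genes. ZNF684 had polysome intensities of 231 and 117 and cytoplasm intensities of 138 and 51.2 under RHA siRNA, a log2 ratio of 0.97 (0.74 and 1.20 within the sets). In this gene the sets differed in level, so the groups overlapped although each set went the same way. ZNF555 read 213 and 171 in polysomes and 143 and 74.9 in cytoplasm, a log2 ratio of 0.88 without overlap. ZNF195 read 86.3 and 151 against 49.1 and 79.6 (0.87, without overlap), and ZNF573 82.8 and 199 against 44.5 and 114 (0.85). ZNF141 had a log2 ratio of 0.94, but its mean cytoplasmic level under RHA siRNA was below the brightness limit. Further probe sets gave smaller ratios, of 0.43 for ZNF684 and 0.06 for ZNF573.

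The lowest ratios under RHA siRNA were smaller in size and came mostly from genes outside the KRAB class. ZNF22, a C2H2 protein first described in tooth development, read 583 and 1361 in polysomes and 981 and 1595 in cytoplasm, a log2 ratio of -0.49 (-0.75 and -0.23 within the sets). ZNF599, a KRAB gene, had -0.47. ZNF414 (-0.46), ZNF821 (-0.44), ZNF580 (-0.43) and ZNF442 (-0.43) followed. ZNF442 is a KRAB gene read by a probe set that may also bind related transcripts. Further probe sets of ZNF821 and ZNF22 gave 0.08 and 0.00. Among these 6 genes only ZNF821 had both polysome arrays dimmer than both cytoplasm arrays. No member was 2-fold lower (0.0396% of all genes).

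Under control siRNA 3 members were at least 2-fold higher in polysomes (0.752% of all genes) and 0 were 2-fold lower (0.00990% of all genes). ZNF618, known as a partner of the methylation reader UHRF2, read 217 and 32.2 in polysomes and 58.2 and 26 in cytoplasm, a log2 ratio of 1.10 that came to 1.90 in set 1 and 0.31 in set 2. ZNF160, a KRAB gene, had 1.05 (1.65 and 0.46), and both of its further probe sets lay below 0, at -0.12 and -0.28. ZNF275, named here after its values were seen, had 2.28 in set 1 and -0.16 in set 2. In all 3 genes most or all of the difference came from set 1, which holds the array with the lowest correlation to its set. ZNF317 (0.90), ZNF667 (0.89), ZNF703 (0.82) and ZNFX1 (0.76) were next among members with one sign in both sets. In 3 of them, all but ZNF703, the polysome arrays were brighter without overlap (10.2% of all genes). Lack of overlap is largely set by picking genes that are high in this ratio.

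At the lower end under control siRNA, ZNF548 read 13.1 and 61.9 in polysomes and 19.6 and 109 in cytoplasm, a log2 ratio of -0.70 (-0.59 and -0.81 within the sets). ZNF107, at -0.70, had -1.31 in set 1 and -0.09 in set 2. ZNF567 had -0.54 with near-equal values in both sets (-0.50 and -0.57). ZNF575 had -0.41, and ZNF81 (-0.60) and ZNF74 (-0.54) had polysome means below the brightness limit. Of these 6 genes, ZNF548, ZNF567, ZNF81 and ZNF74 are on the KRAB list.

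The ratios of some members were on opposite sides of 0 under the siRNAs. ZNF567 read 34.5 and 61.3 in polysomes and 48.8 and 91 in cytoplasm under control siRNA, and 44.2 and 37.4 in polysomes and 40.5 and 17.1 in cytoplasm under RHA siRNA. Its ratio moved from -0.54 to 0.63, a change of 1.16 (SE 0.80; 0.63 and 1.70 within the sets; adjusted p = 1, limma). Most of this lay in the cytoplasmic arrays, where ZNF567 differed by -1.34 between siRNAs, against -0.18 in polysomes. Its further probe sets gave changes of 0.17 and 0.48. The RHA siRNA cytoplasm reading of ZNF567 in set 2, 17.1, lay below the limit of 19.9, and the larger change of 1.70 rests on it. ZNF548 read 20.3 and 84.6 in polysomes and 14.1 and 63.9 in cytoplasm under RHA siRNA, so its ratio went from -0.70 to 0.46, a change of 1.16 (1.11 and 1.22 within the sets). In set 1, 3 of its 4 readings lay below the limit of 19.9, so that set carries little signal for ZNF548. Its level differed several-fold between sets on every kind of array, which set a wide error without the set in the model (SE 1.81).

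ZNF83 (0.94), ZNF518A (0.92), ZNF573 (0.90) and ZNF654 (0.89) had the next highest changes of one sign in both sets. A further probe set of ZNF573 gave a change of -0.12. ZNF518A, a chromatin-associated finger protein, read 200 and 361 in cytoplasm under RHA siRNA and 461 and 609 under control siRNA, while its polysome intensities were 421 and 494 against 458 and 498. Its change was thus a cytoplasmic difference of -0.98 with polysomes near even (-0.07), and its 3 further probe sets gave changes of 0.07, 0.33 and 0.33.

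Among members with one sign in both sets, the largest changes in the other direction were of ZNF317, ZNF599, ZNF703, ZNF667, ZNF143 and ZNF836. ZNF317, a KRAB gene, read 80.7 and 115 in polysomes and 34.7 and 77 in cytoplasm under control siRNA, and 53.3 and 107 in polysomes and 87 and 110 in cytoplasm under RHA siRNA. Its ratio went from 0.90 to -0.38, a change of -1.28 (SE 0.76; -1.92 and -0.63 within the sets; adjusted p = 1, limma). Its probe set may bind other transcripts of the family, and a further probe set gave a change of -0.37. ZNF703, a corepressor of the NET family that is amplified in some breast cancers, read 73.6 and 95.9 in polysomes and 29.6 and 76.1 in cytoplasm under control siRNA. Under RHA siRNA ZNF703 read 34 and 76.6 in polysomes and 42.6 and 94.3 in cytoplasm, a change of -1.14 (-1.64 and -0.63). ZNF599 had a change of -1.15 (-1.66 and -0.63), and ZNF667 had -1.03, nearly all of it in set 1 (-2.03 against -0.04), with -0.27 and -0.57 in its further probe sets. ZNF143, which activates promoters of small nuclear RNA and many mRNA genes, had -0.98 (-0.64 and -1.32). ZNF836 had -0.96, with group means below the brightness limit in control cytoplasm and RHA polysomes. Counted at 2-fold, 2 members had a higher ratio under RHA siRNA (0.455% of all genes) and 6 a lower one (3.03% of all genes).

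**Figure D4:**
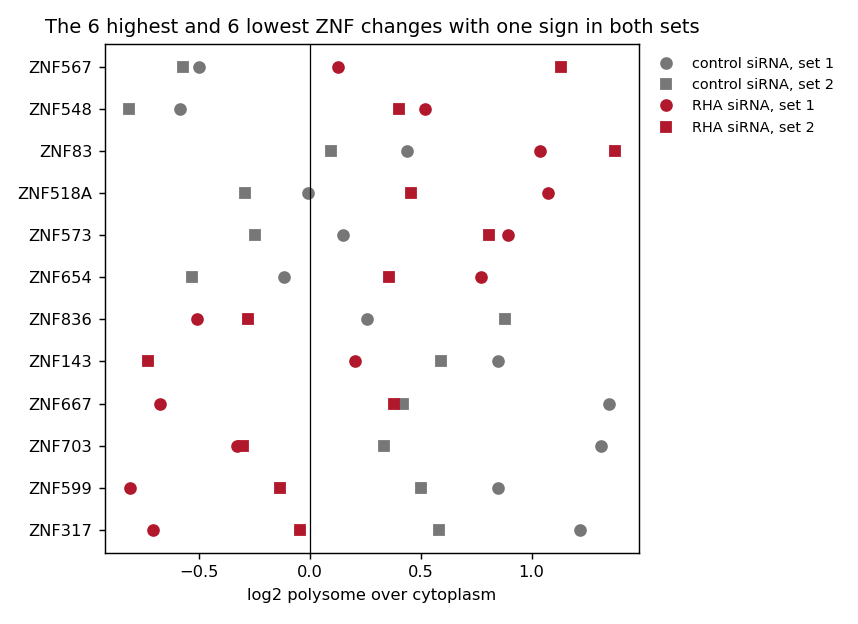
Log2 polysome over cytoplasm ratio (horizontal axis) of the 12 ZNF genes with the highest and lowest changes of one sign in both sets, under control siRNA (grey) and RHA siRNA (red), with circles for set 1 and squares for set 2. The genes were picked for large changes of one sign, so the separation of red from grey points is largely set by that choice. In 11 of the 12 genes both red points lie on one side of both grey points by more than 0.1, while in ZNF667 the set 2 points nearly coincide. The changes run from 1.16 in ZNF567 to -1.28 in ZNF317. Over all genes, 18.7% were higher and 22.0% lower under RHA siRNA without overlap.

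**Figure D5:**
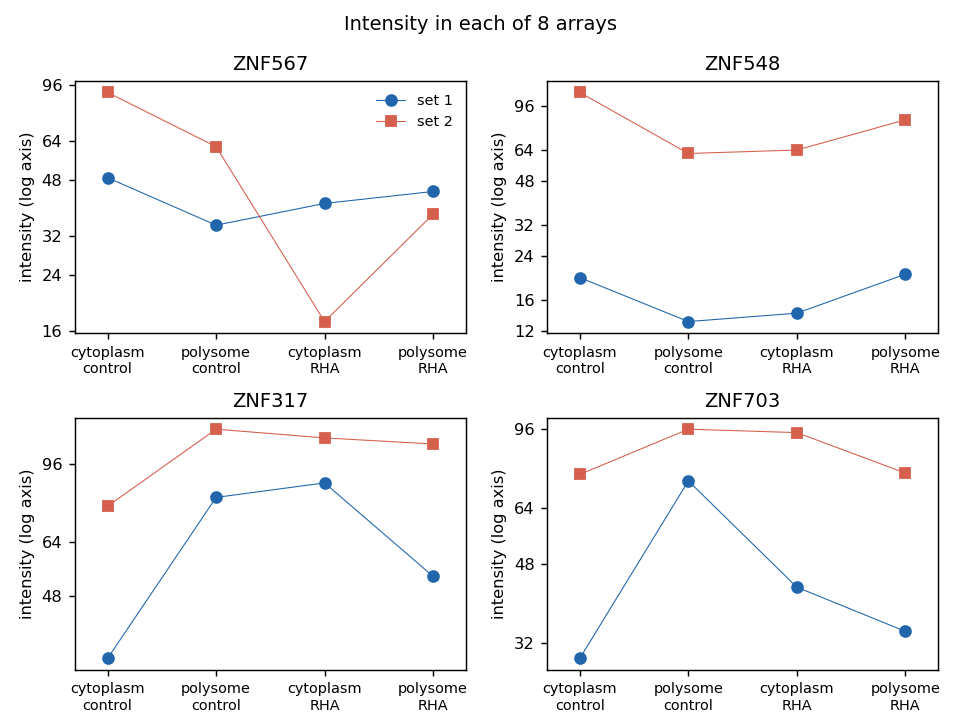
Intensity (vertical log axis) of ZNF567, ZNF548, ZNF317 and ZNF703 on each of the 8 arrays, by group, with circles for set 1 and squares for set 2 joined within a set. The sets differ in level, as in ZNF548 with 13.1 to 20.3 in set 1 and 61.9 to 109 in set 2, and both show the same order of polysome and cytoplasm within each siRNA.

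Against control siRNA within one fraction, ZNF levels were spread about those of all genes. In cytoplasm the median log2 difference was 0.04 (0.12 and -0.18 within the sets), against 0.06 over all genes. In polysomes it was 0.04 (0.14 and -0.04), against 0.00 over all genes. Leaving out 1 array or set moved the cytoplasmic difference from all genes to between -0.29, without the control array of set 1, and 0.15, without that of set 2. The polysomal one moved to between -0.14, without the control array of set 1, and 0.26, without that of set 2. In cytoplasm the arrays of the siRNAs did not overlap in 11 members that were higher under RHA siRNA (5.21%; 11.6% of all genes) and 19 of 211 that were lower (8.88% of all genes). In polysomes these were 20 (9.48%; 7.97% of all genes) and 10 (4.74%; 9.03% of all genes). One sign in both sets of cytoplasm was found for 43 members above 0 (20.4%; 29.3% of all genes) and 51 below (24.2%; 24.1% of all genes), and in polysomes for 63 above (29.9%; 27.3% of all genes) and 49 below (23.2%; 27.4% of all genes). A mean above 0 was found for 110 members in cytoplasm (52.1%; 56.1% of all genes) and 114 in polysomes (54.0%; 49.7% of all genes). Limma called 0 of 26383 probe sets in either fraction. At an unadjusted p under 0.05 it listed 426 probe sets and 2 members in cytoplasm (1.49% of all genes) and 137 probe sets and 1 member in polysomes (0.673% of all genes). The 2 cytoplasmic members were ZNF518A and ZNF732. ZNF732 read 130 and 89.5 under control siRNA and 48 and 60.5 under RHA siRNA in cytoplasm, with log2 differences of -1.43 in set 1 and -0.56 in set 2. In polysomes it read 152 and 101 against 82.2 and 81.7 (-0.60), so it was lower in both fractions without overlap. The polysomal member was ZNF585B, a KRAB gene, which read 20.8 and 28.5 under control siRNA and 46.2 on both arrays under RHA siRNA, a log2 difference of 0.92 (1.15 and 0.70).

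The KRAB genes had a median polysomal difference of 0.14, with 0.29 in set 1 and -0.05 in set 2, and a cytoplasmic one of 0.07, with 0.29 and -0.24. The sets thus differed in sign in both fractions, while the median RHA siRNA ratio of these genes was above 0 in both. ZNF26 had the highest polysomal difference, at 1.33, from 87.1 and 86.2 under control siRNA to 291 and 162 under RHA siRNA, followed by ZNF799 (1.01), ZNF585B and ZNF555 (0.88), all KRAB genes without overlap. The lowest polysomal differences were those of ZNF703 (-0.72), ZNF143 (-0.67), ZNF732 and ZNF185 (-0.59). ZNF185 is a LIM-domain protein of the actin cytoskeleton and a member by its symbol only. In cytoplasm ZNF317 (0.92), ZNF41 (0.78), ZNF599 (0.78) and ZNF629 (0.75) were highest, and ZNF567 (-1.34), ZNF385B (-1.08), ZNF732 and ZNF518A lowest.

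Of 3 members with known roles in ribosome function or in RNA sensing, ZNF598 and ZNF593 lay near even and ZNFX1 was higher in polysomes under control siRNA. ZNF598, the ubiquitin ligase that marks collided ribosomes, read 91.9 and 58.1 in polysomes and 89.3 and 60.4 in cytoplasm under control siRNA, a log2 ratio of -0.01, and had -0.11 under RHA siRNA. ZNF593, a factor of large ribosomal subunit assembly, had 0.14 and -0.15. ZNFX1, a helicase that senses double-stranded RNA, had 0.76 under control siRNA, with 1.12 and 0.40 within the sets, and 0.12 under RHA siRNA, where the sets had opposite signs (-0.50 and 0.75).

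The 6 RNA-binding members had a median of 0.24 under control siRNA, with 0.02 in set 1 and 0.27 in set 2, and of 0.12 under RHA siRNA. A mean above 0 was found for 6 and 4 of them (61.8% and 52.0% of all genes), but both sets were above 0 in only 2 of 6 under either siRNA (35.4% and 32.3% of all genes). ZNF346, which binds double-stranded RNA, had 0.79 under control siRNA, but 1.80 in set 1 and -0.22 in set 2. ZNF106 had the lowest change of all members, at -1.36, and it came from set 1 (-2.77 against 0.05), while its further probe set gave 0.18. Its cytoplasmic reading on the control array of set 1 was 84.2, where the other arrays of set 1 read 147 to 379. ZNF326 (0.09 and 0.20), ZNF638 (0.18 and 0.29), ZNF385A (0.27 and -0.23) and ZNF830 (0.20 and 0.34) had smaller ratios under control and RHA siRNA.

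Of the 22 promoter and chromatin regulators among the members, 11 had RHA siRNA ratios above 0 in both sets (32.3% of all genes), and 6 had control ratios so (35.4% of all genes). Over the 22, the median ratio was 0.24 under RHA siRNA, with a mean above 0 in 12, and 0.11 under control siRNA, with a mean above 0 in 15. The median change was -0.02, with -0.24 in set 1 and 0.13 in set 2. ZNF518A was highest under RHA siRNA, at 0.77, followed by ZNF131 at 0.63. Under this siRNA polysome arrays were brighter without overlap in 6 of the 22 (27.3%; 9.83% of all genes). Among these were ZNF462 (0.30 in each set), ZNF384 (0.44 and 0.38) and ZNF644 (0.60 and 0.49). Another was ZNF217, a CoREST-associated factor amplified in carcinomas (0.28 and 0.38). ZNF24, a SCAN protein, lay below 0 in all pairs, at -0.24 under control siRNA and -0.32 under RHA siRNA. ZNF335, a subunit of a histone methyltransferase complex, had 0.12 and -0.21, and nucleolar ZNF330 had 0.28 and -0.23.

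The brightest probe sets among the members were those of ZNF652, ZNF706, ZNF805, ZNF146, ZNF22 and ZNF655, with mean log2 intensities of 11.14 to 9.62. Brightness depends on the probes and does not rank the transcripts. Under RHA siRNA their ratios ran from -0.49 in ZNF22 to 0.49 in ZNF655, a KRAB gene that read 991 and 738 in polysomes and 689 and 542 in cytoplasm without overlap. A further probe set of ZNF655 gave -0.15, and that of ZNF652 gave 0.47 where the chosen one had -0.34. That of ZNF22 gave 0.00, while those of ZNF146 (0.25 and 0.54) kept the sign of the chosen one (0.18). ZNF706, which encodes a very small protein, had -0.01 under control siRNA and 0.21 under RHA siRNA.

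The partners through which KRAB proteins act had a lower median RHA siRNA ratio than the KRAB genes, a difference that was not tested. Over 28 partners the control siRNA ratio had a median of 0.19, with 0.20 in set 1 and -0.01 in set 2. The RHA siRNA ratio had one of 0.08, with -0.02 in set 1 and 0.24 in set 2. The median change was -0.31 in set 1 and 0.24 in set 2, so the sets did not share its sign. TRIM28 read 270 and 93.9 in polysomes and 82.8 and 80.5 in cytoplasm under control siRNA, and 98.3 and 81.9 in polysomes and 201 and 113 in cytoplasm under RHA siRNA. Its ratio was 0.96 (1.70 and 0.22 within the sets) and then -0.75 (-1.03 and -0.47), a change of -1.71 (SE 0.80, adjusted p = 1, limma), so that polysome arrays were the brighter under control siRNA and the dimmer under RHA siRNA without overlap. SETDB1 had -0.18 and -0.27, with close values in both sets. ATRX had the highest control ratio, at 1.20, with 2.90 in set 1 and -0.50 in set 2, and EHMT1 the lowest, at -0.23.

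Other DNA-binding finger families also had median RHA siRNA ratios above that of all genes. The median was 0.17 over 28 ZBTB genes, with 22 above 0, 0.21 over 12 ZSCAN genes, 0.20 over 7 ZKSCAN genes (-0.17 in set 1 and 0.35 in set 2), 0.16 over 12 KLF genes and 0.19 over 6 ZFP genes. Of other zinc-finger families by symbol, 5 ZMYM genes had 0.40, 10 ZC3H genes 0.14, 4 ZMYND genes 0.10 and the 1 ZIC gene 0.30. The 14 ZDHHC genes, palmitoyltransferases whose zinc-binding domain does not read DNA, had -0.24. Cytosolic ribosomal protein genes (38) had -0.11, mitochondrial ones (62) 0.00 and complex I subunits (32) -0.05. These medians are descriptions of lists of unequal size, and no difference between them was tested.

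The 70 members with further tested probe sets, 97 in all, allowed a limited comparison of the readings. The further probe set had the sign of the chosen one in 56 of 97 cases for the control ratio, 58 for the RHA siRNA ratio and 63 for the change. For the change, the Pearson correlation between further and chosen probe sets was 0.32. Since 72.0% of members had RHA siRNA ratios above 0, part or all of the agreement in sign can arise without agreement by gene. How much of it does was not computed, so the counts for the RHA siRNA ratio do not show agreement by gene. Of the 211 chosen probe sets, 15 carry a suffix for probes shared between transcripts (12 _s_at and 3 _x_at), and the other 196 had a median RHA siRNA ratio of 0.21.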

How the data were processed

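RNA of 8 COS cell samples was measured on Affymetrix rhesus arrays, 2 for each of 4 groups named in the sample titles. The authors deposited 1 intensity per probe set and array on a linear scale. GCOS and RMA are listed in the submitters' processing notes without a version or a stated role. The array medians lay close together, so the values were taken as normalized. Of 52865 probe sets, 24969 had 1 symbol in the platform annotation, 361 several and 27535 none, and 99 were controls. Intensities were put on the log2 scale. The 26383 non-control probe sets at or above the median brightness entered a model of 4 groups in limma 3.58.1 (R 4.3.3; lmFit, eBayes, two-sided tests), with Benjamini-Hochberg adjustment over all of them and a threshold of 0.05. The scripts were tested on simulated data. A set's difference is that between its arrays, and gene medians use 1 probe set per gene. The members and lists were chosen with earlier results of these data known. Genes were named as the 6 highest and 6 lowest per ratio contrast (4 per siRNA effect) with one sign in both sets, the 6 brightest, those beside the limit, DHX9, listed role genes and, of the partners, TRIM28, SETDB1 and the 2 highest and 2 lowest control ratios; others are marked. The partner rule also gave TRIM28 among the highest and SETDB1 among the lowest. Alternatives covered the replicate block, filters, normalization, pseudocount, variance trend, samples fitted, probe set choice and leaving out arrays. Arrays have no read depth, and their number limits the precision.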

Additional observations from a re-analysis of the deposited data

Results flagged for a closer look

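In 22 of the 211 ZNF genes the polysome over cytoplasm ratio lay on one side of 0 in both sets under control siRNA and on the other side in both sets under RHA siRNA. From below 0 to above 0 went 4.74% of members and 5.52% of all genes, and from above to below 5.69% of members and 9.11% of all genes. Neither share was thus higher in the members. Where 0 lies depends on the scale of the arrays, so small ratios can change side with it. The difference itself, fitted as the change under RHA siRNA, was not called by limma in any of the 22 (the lowest adjusted p of any member was 1, or 0.967 with the replicate block). The change was above 0 in 10 genes, ZNF567 (1.16), ZNF548 (1.16), ZNF518A (0.92), ZNF654 (0.89), ZNF385B (0.71), ZNF606 (0.66), ZNF391 (0.66), ZNF592 (0.58), ZNF862 (0.45) and ZNF829 (0.42). The further probe sets of ZNF592 gave changes below 0, of -0.22 and -0.33, and those of ZNF567 and ZNF518A gave changes above 0. It was below 0 in 12 genes, ZNF317 (-1.28), ZNF599 (-1.15), ZNF703 (-1.14), ZNF836 (-0.96), ZNF629 (-0.80), ZNF580 (-0.67), ZNF408 (-0.57), ZNF362 (-0.53), ZNF423 (-0.46), ZNF335 (-0.33), ZNF574 (-0.30) and ZNF646 (-0.18).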

How the results depend on the processing

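The planned settings were run for each contrast, and the settings without a whole set and with the replicate block and 1 array left out were chosen after seeing the data. Limma called 0 members and 0 probe sets in every contrast and setting, the replicate block included; with the block, unadjusted p under 0.05 was found for 1087, 1177 and 1048 probe sets and 11, 13 and 9 members (3.89%, 4.23% and 4.17% of all genes) in the control ratio, the RHA siRNA ratio and the change, and for 3174 and 1334 probe sets and 20 and 12 members (12.3% and 5.37%) in cytoplasm and polysomes. Same-numbered arrays deviated together (correlations of 0.68 to 0.868), and the numbers were used for the within-set values and the replicate block, although the labels do not say that a number marks a shared culture or day and 2 numbers are too few to test it. The ZNF median minus that of all genes was 0.06 in the control ratio and -0.038 with the replicate block and without the control cytoplasm array of set 1, where the KRAB median difference was -0.043, the KRAB change 0.37 and ZNF160 -0.036; under the stricter filter the KRAB difference in the RHA siRNA ratio was 0.21. Leaving out arrays moved the ZNF difference to between -0.15 and 0.29 in the control ratio, 0.066 and 0.27 in the RHA siRNA ratio, -0.12 and 0.35 in the change, -0.29 and 0.15 in cytoplasm and -0.14 and 0.26 in polysomes, and the KRAB difference to between -0.29 and 0.50, 0.10 and 0.44, and -0.23 and 0.54 in the first 3. Where 1 array was left out without the replicate block, its group came from 1 set and the others from both. Such values, those of single genes below included, also carry the difference between sets, and its part in them was not tested. Within the sets, ZNF548 kept the same sign in the control ratio and in the change. Single genes that turned sign when an array was left out were, in the control ratio, ZNF618 (-0.27 to 2.48), ZNF548 (-1.94 to 0.54) and ZNF107 (-2.18 to 0.78); in the RHA siRNA ratio ZNF22 (-1.10 to 0.12), ZNF599 (-1.01 to 0.069), ZNF580 (-0.96 to 0.10) and ZNF442 (-1.08 to 0.21); in the change ZNF573 (-0.58 to 2.38), ZNF654 (-0.19 to 1.97), ZNF548 (-0.074 to 2.40) and ZNF143 (-2.05 to 0.082); and in polysomes ZNF143 (-1.34 to 0.0090). By quantile normalization 51.7% of ZNF genes (45.8% of all genes) lay above 0 in the control ratio, 67.3% (47.8%) in the RHA siRNA ratio and 60.7% (53.1%) in the change; by array centring the last 2 were 66.4% (45.7%) and 64.5% (55.7%). Signals near the brightness limit, as in ZNF548, ZNF81, ZNF74, ZNF141 and ZNF836, limit what the ratios of dim members can show.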
